A study of Mus musculus with 18 samples.

Results

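The lid of the 19S regulatory particle of the proteasome was followed through the response to carfilzomib (CFZ), a drug that blocks the proteasome irreversibly, in mouse fibroblasts with and without the transcription factor Nrf1. The genes were selected by symbol, with earlier results of these data known. They are Psmd3, Psmd6, Psmd8, Psmd11, Psmd12 and Psmd13, whose proteins carry a PCI domain, and Psmd7 and Psmd14, whose proteins carry an MPN domain. They make 8 of the 23420 rows of the count table, and all 8 passed the expression filter that left 11762 genes for testing. Their counts ran from 802 to 11323 reads per gene and library, so no lid gene was limited by low counts.

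The proteasome is a barrel-shaped protease, the 20S core, which takes in substrates through a 19S particle made of a base and a lid. The base carries a ring of ATPases that unfold the substrate, while the lid removes its ubiquitin chain. The PCI subunits of the lid form a horseshoe of scaffold proteins around the pair of MPN subunits, of which Psmd14 is the zinc metalloprotease (JAMM type) that cuts the chain off. Nrf1 is held at the endoplasmic reticulum and is degraded by the proteasome itself, and when the proteasome is inhibited it is known to reach the nucleus and to raise transcription of proteasome genes from antioxidant response elements (AREs).

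The cells were of NIH-3T3, an established line of mouse embryonic fibroblasts, either wild-type (WT) or with Nrf1 knocked out by CRISPR/Cas9 (Nrf1KO), and they were given DMSO, the vehicle, or 200 nM CFZ for 6 h or 24 h. The 6 groups, WT and Nrf1KO in DMSO, in CFZ 6 h and in CFZ 24 h, had 3 biological replicates each, which made 18 libraries. The labels give no time for DMSO, so the same DMSO libraries served as the control of both times. Nrf1KO is described as 1 cell line, and differences between it and WT that have nothing to do with Nrf1 cannot be told apart from those that do.

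The 8 genes lie on 5 chromosomes of the mouse genome (GRCm38, GENCODE M21). Psmd11 (chr11:80428615-80473248), Psmd3 (chr11:98682554-98695979) and Psmd12 (chr11:107479484-107504362) are on the plus strand of chromosome 11. Psmd8 (chr7:29174188-29180701, minus strand) and Psmd13 (chr7:140881968-140898643, plus strand) are on chromosome 7. Psmd7 (chr8:107580381-107588464, minus strand), Psmd6 (chr14:14112174-14120984, minus strand) and Psmd14 (chr2:61711694-61800376, plus strand) complete the set. Of the exonic bases of Psmd13, 10.1% overlap those of Sirt3 on the opposite strand, and how reads were counted there is not given in the sources used here.

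RefSeq promoter sequences (GRCm38.p6), running from 250 bases before to 50 bases after a start site, were at hand for 6 of the 8 genes, all but Psmd3 and Psmd7. They were searched on both strands for the core of the ARE, written as TGACNNNGC or TGAGNNNGC, in which N is any base. Psmd12 and Psmd13 are shown because theirs hold a match, marked in capitals. Psmd11 and Psmd8 are shown because they hold none and had the largest rise of the lid genes in Nrf1KO cells at 24 h of CFZ, described further on. Psmd14, which also holds none, is not shown, though its log2 rise there (0.71) was close to that of Psmd8 (0.76). Each promoter shown is printed 5′ to 3′ on the strand of the gene, and is cut short after the first 30 bases of the annotated gene. The annotated gene of Psmd13 begins before the window, and 30 bases around its match are shown.
Psmd12, chr11:107479278-107479513, plus strand: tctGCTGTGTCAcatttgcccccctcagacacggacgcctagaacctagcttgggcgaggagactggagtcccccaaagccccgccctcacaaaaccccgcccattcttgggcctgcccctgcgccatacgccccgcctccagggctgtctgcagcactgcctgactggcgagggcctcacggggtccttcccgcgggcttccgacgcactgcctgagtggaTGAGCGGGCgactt
Psmd13, chr7:140882385-140882414, plus strand: gtgccggaagTGAGCGAGCacttccgtgcg
Psmd11, chr11:80428365-80428644, plus strand: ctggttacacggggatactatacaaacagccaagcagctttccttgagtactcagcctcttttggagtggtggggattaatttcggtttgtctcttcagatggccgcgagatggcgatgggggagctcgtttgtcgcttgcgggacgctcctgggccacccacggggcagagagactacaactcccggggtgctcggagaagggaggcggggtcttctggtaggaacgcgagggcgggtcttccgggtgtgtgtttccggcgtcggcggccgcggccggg
Psmd8, chr7:29180672-29180923, minus strand: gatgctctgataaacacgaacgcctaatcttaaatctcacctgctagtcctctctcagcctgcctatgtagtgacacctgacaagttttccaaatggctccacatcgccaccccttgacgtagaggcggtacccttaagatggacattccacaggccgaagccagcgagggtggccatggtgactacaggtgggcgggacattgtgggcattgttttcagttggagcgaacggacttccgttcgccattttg

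In Psmd12, TGACNNNGC stood on the opposite strand at bases -247 to -239 from the start site, and TGAGNNNGC on the gene's strand at -28 to -20. In Psmd13, TGAGNNNGC stood at bases 2 to 10 after the start. This match and the TGAGNNNGC of Psmd12 lie inside the genes as annotated in GENCODE M21, which begin before these start sites. Psmd6, Psmd8, Psmd11 and Psmd14 had neither form in their windows. Of these, Psmd6 fell in Nrf1KO at 24 h of CFZ (log2 -0.13), while Psmd8, Psmd11 and Psmd14 rose. Whether a match goes with the response was not tested. In all, 2 of 6 lid genes had a match, next to 4 of 9 genes of the 19S base and 7 of 11 of the 20S core. These genes were counted if any of their promoters matched. Counted by promoter instead, 27.8% of all 32851 of the same length, from 27025 genes, had a match, so the units differ. The box CCAAT was in the Psmd14 window only, in 3 places, of which 1 pair on opposite strands overlapped, while 37.4% of all promoters held it. These are matches of letters and not measured binding sites.

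The libraries held 8333148 to 23917081 counts, with a median of 14419832, and all 18 were closest to a library of their own group. The replicates differed by more than sampling noise in every pair, and the common coefficient of biological variation was 3.13%, so that small differences pass the test. All 8 fibroblast markers were found in all libraries, but their summed level was between 32821 and 35671 counts per 1000000 counts of the library (CPM) in WT DMSO and between 8090 and 8384 at CFZ 24 h. In Nrf1KO it was between 27356 and 33634 in DMSO and between 10816 and 12846 at CFZ 24 h. Markers of other cell types stayed low, with sums of 0.333 to 13.0 CPM for 5 epithelial genes, of which Epcam, Krt18 and Cldn4 were at 0 throughout, 0.364 to 5.82 for 4 blood cell genes and 0.120 to 3.83 for 3 endothelial genes. The part of the fibroblast genes' lower level in the results at 24 h was not tested.

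Levels are given below as CPM, scaled between libraries by edgeR's TMM method, in the order of replicates 1 to 3. A gene is called higher or lower where edgeR's quasi-likelihood test gave a Benjamini-Hochberg adjusted p under 0.05 over the 11762 genes, with no minimum fold. Values after ± beside log2 fold changes are standard errors of the fit (n = 3 libraries in each group).

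The knocked-out gene is listed as Nfe2l1, since the symbol Nrf1 belongs to another gene, nuclear respiratory factor 1. Nfe2l1 stood at 457, 437 and 449 CPM in WT DMSO and at 174, 185 and 181 in Nrf1KO DMSO. With CFZ it was at 650.4, 648 and 628 at 6 h and 559, 555 and 580.0 at 24 h in WT, as compared with 413, 416 and 427 and then 209.5, 202 and 201 in Nrf1KO. The Nrf1KO libraries were thus below the WT libraries in every treatment, with a log2 difference of -1.31 ± 0.034 in DMSO (adjusted p = 1.6e-24), but they still held reads of the gene. Within Nrf1KO these reads rose 2.32-fold at 6 h of CFZ. Counts per gene do not show whether a functional protein could be made from them.

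In WT cells CFZ raised the RNA of all 8 lid subunits at both times, and for each of them every treated library lay above every DMSO library. At 6 h the rise ran from 1.54-fold in Psmd8 to 3.50-fold in Psmd11, and at 24 h from 1.91-fold in Psmd7 to 3.68-fold in Psmd11. Of all genes tested, 35.6% were called higher at 6 h and 43.2% at 24 h, and with at least 2-fold it was 3.98% and 10.5%, as compared with 7 of the 8 lid genes at each time. Libraries that all lay above DMSO were found in 36.7% of genes at 6 h and 43.4% at 24 h. The median log2 fold change of the lid was 1.18 at 6 h and 1.52 at 24 h, while that of all genes was -0.02 and 0.02. The lid genes together took 0.115% to 0.117% of all counts in WT DMSO, 0.273% to 0.276% at 6 h and 0.304% to 0.308% at 24 h. Both times were set against the same DMSO libraries.

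Among the PCI subunits, Psmd11, which clamps the lid to the 20S core, and Psmd3 rose most. Psmd11 was at 140.0, 151 and 145 CPM in WT DMSO, 503, 515 and 505 at 6 h and 527, 534 and 541 at 24 h. On the log2 scale it rose by 1.81 ± 0.033 within 6 h (adjusted p = 1.9e-29) and by 1.88 ± 0.033 within 24 h. Psmd3, a scaffold subunit of the horseshoe, went from 201, 202 and 196 CPM to 694, 675 and 664 at 6 h and 682, 679 and 679.9 at 24 h. That was 3.40-fold at 6 h (log2 1.76 ± 0.031, adjusted p = 6.9e-30) and 3.41-fold at 24 h. In both genes the 6 treated libraries lay far above the 3 DMSO libraries, and the log2 rise at 6 h was 96.1% of that at 24 h in Psmd11 and 99.7% in Psmd3.

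Psmd12, another scaffold subunit, rose from 125.3, 126 and 120.3 CPM to 352, 359 and 347 at 6 h and 360.0, 369.5 and 359 at 24 h, or 2.84-fold and 2.93-fold (adjusted p = 3.1e-26 at 6 h). Psmd6 rose from 98.4, 98.3 and 96.5 CPM to 229.8, 219.7 and 223 at 6 h and 234, 232 and 229 at 24 h, which was 2.29-fold and 2.37-fold. In both genes the libraries of 6 h and 24 h overlapped. Psmd13 rose by 6 h and again by 24 h, from 104, 111 and 106 CPM to 226, 225 and 227 at 6 h and 299.6, 302 and 302 at 24 h, or 2.12-fold and 2.81-fold.

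Psmd8, which in lid assembly is known as the last subunit to join, rose least at 6 h and was among the highest at 24 h. It read 129, 121 and 133 CPM in DMSO, 197, 199.9 and 195 at 6 h and 389, 419.7 and 405 at 24 h. The early log2 rise was 0.63 ± 0.040 (adjusted p = 3.8e-15) and the late one 1.67 ± 0.038 (adjusted p = 3.3e-27). Only 37.6% of its log2 rise at 24 h was present at 6 h, as compared with 72.4% in Psmd13 and 92.6% to 124% in the other 6.

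The MPN pair rose by similar factors at 6 h and parted later. Psmd14, the deubiquitinase, went from 91.8, 89.2 and 87.8 CPM to 206, 207 and 193 at 6 h and 213, 219 and 214 at 24 h, or 2.25-fold and 2.40-fold. Psmd7, its partner without a catalytic site, went from 214, 223 and 216 CPM to 481, 491 and 489 at 6 h and 405, 419 and 422 at 24 h, or 2.24-fold and 1.91-fold. Psmd7 was thus the lid gene whose level at 24 h had come back below that at 6 h, with no overlap between the libraries.

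**Figure D1:**
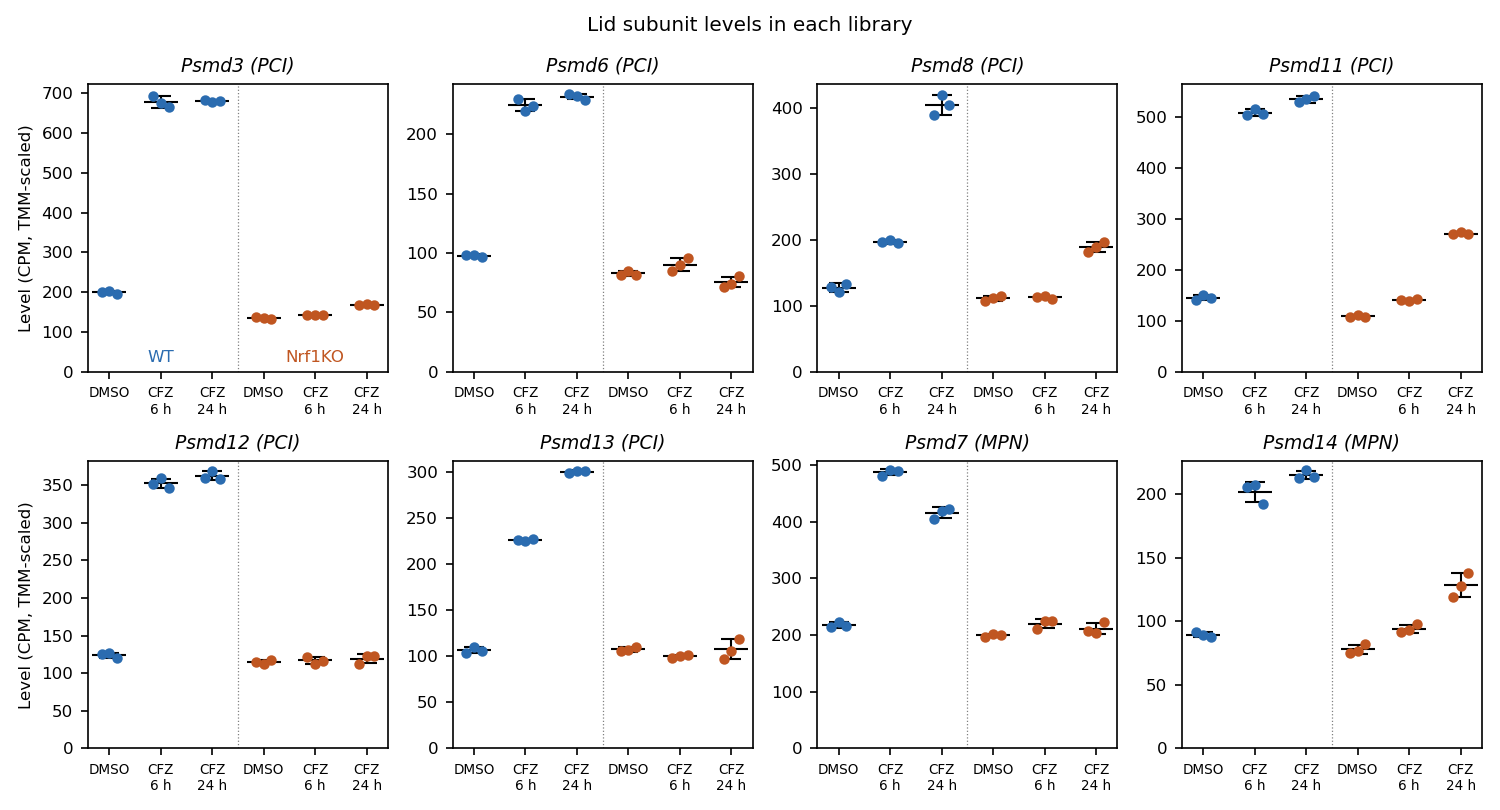
Level of each of the 8 lid genes in the 18 libraries, in CPM scaled by TMM, with 1 panel per gene (each with its own linear axis from 0), WT in blue and Nrf1KO in orange. Points are libraries, wide bars group means and error bars SD (n = 3). In WT all 8 genes step up with CFZ, Psmd8 mostly between 6 h and 24 h, while in Nrf1KO Psmd11, Psmd8 and Psmd14, and by less Psmd3, stand above DMSO at 24 h.

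Set against each other directly, CFZ 24 h and CFZ 6 h in WT cells differed for 5 of the 8 lid genes, with 4 higher and 1 lower at 24 h, while 36.9% of all genes tested were higher and 35.4% lower. Psmd8 rose a further 2.06-fold (log2 1.04 ± 0.038, adjusted p = 2.2e-21), as 5.16% of all genes rose by 2-fold or more, and Psmd13 a further 1.33-fold (adjusted p = 1.2e-10). Psmd7 fell by 0.23 on the log2 scale (SE 0.035, adjusted p = 7.4e-07). Psmd11 and Psmd14 passed the threshold with differences of 0.07 and 0.09 (adjusted p = 0.032 and 0.042), but leaving out any of WT CFZ 6 h replicates 1, 2 and 3 or WT CFZ 24 h replicates 2 and 3 ended both calls, leaving 2 genes higher, and WT CFZ 24 h replicate 1 ended that of Psmd14. Both calls were also lost with upper-quartile scaling and without the expression filter, and that of Psmd14 with DESeq2. Psmd3, Psmd6 and Psmd12 had differences of 0.01, 0.05 and 0.04 (95% intervals -0.05 to 0.06, -0.03 to 0.12 and -0.03 to 0.11).

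In Nrf1KO cells the response to CFZ was small at 6 h and uneven at 24 h. At 6 h the median log2 fold change of the lid was 0.10 (it was -0.01 with scaling by library size alone), and at 24 h 0.20 (0.02 with that scaling), as compared with -0.01 and 0.03 for all genes. At each time 5 lid genes were called higher, 1 lower and 2 neither, while of all genes 34.5% were higher and 35% lower at 6 h, and 44.4% and 41.1% at 24 h. These counts depended on the method. At 6 h DESeq2 called 3 lid genes higher, upper-quartile scaling 2, and library size alone 2 higher and 2 lower, and at 24 h library size alone called 4 lower. Of all genes, DESeq2 called 3620 higher at 6 h. Of the 11762 genes tested, upper-quartile scaling called 3376 higher at 6 h, and library size alone 3036 higher and 5298 lower. At 24 h library size alone called 5857 of them lower, which is close to the share among the lid genes. With at least 2-fold, no lid gene was higher at 6 h and Psmd11 alone was at 24 h, next to 3.3% and 11.5% of all genes. The lid genes took 0.0989% to 0.103% of all counts in DMSO, 0.1% to 0.104% at 6 h and 0.117% to 0.125% at 24 h.

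Psmd11 was the lid gene that rose most in these cells too. It stood at 107, 111 and 108 CPM in Nrf1KO DMSO, 141, 139 and 142 at 6 h and 269.8, 273 and 269 at 24 h. The early log2 rise was 0.37 ± 0.036 (adjusted p = 9.9e-11) and the late one 1.32 ± 0.034, or 2.49-fold (adjusted p = 4e-26). Psmd8 was at 107, 112 and 115 CPM in DMSO, 114, 115 and 111 at 6 h and 182, 189 and 197 at 24 h. Its groups overlapped at 6 h (log2 0.02 ± 0.043, adjusted p = 0.63) and were apart at 24 h, with a 1.70-fold rise (adjusted p = 6.6e-18). Psmd14 rose at both times, from 75.1, 76.6 and 82.3 CPM to 91.4, 93.4 and 97.6 and then 119, 128 and 138, or 1.198-fold (adjusted p = 1.9e-05) and 1.64-fold (adjusted p = 1.1e-15).

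Psmd3 showed a slight rise, from 137, 136 and 134 CPM to 143, 144 and 144 at 6 h and 167, 170.2 and 167 at 24 h. At 24 h it was 1.24-fold (adjusted p = 1.5e-10), whereas the log2 difference of 0.08 at 6 h (adjusted p = 0.026) lost its call with DESeq2, with upper-quartile scaling, without the expression filter and without Nrf1KO DMSO replicate 3 or CFZ 6 h replicates 2 or 3, and turned to -0.03 with scaling by library size alone. Psmd7 was at 196, 202 and 199.7 CPM in DMSO, 211, 225 and 224 at 6 h and 207, 203 and 223 at 24 h. Its log2 difference at 6 h was 0.14 (adjusted p = 0.0012), and was not called with upper-quartile scaling (0.067, adjusted p = 0.11) or library size alone (0.029, adjusted p = 0.49). That at 24 h was 0.08 (adjusted p = 0.032). The later call was lost with DESeq2, without the expression filter, with only the groups compared and without Nrf1KO DMSO replicate 1 or 3 or any of the 3 libraries at 24 h. The difference turned to -0.02 with upper-quartile scaling and, called lower, to -0.10 with library size alone (adjusted p = 0.014). Both genes stayed far under the levels they reached in WT.

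The remaining PCI subunits moved little or down. Psmd6 was at 81.5, 85.3 and 81.7 CPM in DMSO, 85.0, 89.8 and 96.2 at 6 h and 71.8, 74.3 and 80.4 at 24 h, so that it was called higher at 6 h (log2 0.12, adjusted p = 0.017), though its libraries overlapped those of DMSO, and lower at 24 h (-0.13, adjusted p = 0.0054). The call at 6 h was lost with DESeq2 (0.099, adjusted p = 0.071), upper-quartile scaling (0.044, adjusted p = 0.38), library size alone (0.0061, adjusted p = 0.91) and no expression filter (0.069, adjusted p = 0.23), and without Nrf1KO DMSO replicate 3 or CFZ 6 h replicate 3. Psmd12 read 115, 113 and 117 CPM in DMSO, 122, 113 and 117 at 6 h and 113, 122 and 123 at 24 h, with overlapping groups throughout. Its log2 difference at 24 h was 0.05 with a 95% interval of -0.02 to 0.13, next to 1.55 in WT. With library size alone it was called lower by 24 h (-0.130, adjusted p = 0.0020) and by 6 h as well (-0.090, adjusted p = 0.041).

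Psmd13 was at 106, 107 and 110.4 CPM in DMSO, 98.4, 100.1 and 102 at 6 h and 97.6, 106 and 119 at 24 h. It was called lower at 6 h (log2 -0.11, adjusted p = 0.042), a call lost without Nrf1KO DMSO replicates 2 or 3 or CFZ 6 h replicates 1 or 2. At 24 h the log2 difference was -0.00 with an interval of -0.09 to 0.09, but without Nrf1KO CFZ 24 h replicate 3, the highest library, it was -0.11 and was called lower. It was also called lower with upper-quartile scaling (-0.109, adjusted p = 0.028) and with library size alone (-0.184, adjusted p = 0.00031).

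Between 6 h and 24 h in Nrf1KO, 5 lid genes were higher and 1 lower at the later time, next to 38.7% and 38.3% of all genes. The higher ones were led by Psmd11 at 1.92-fold, Psmd8 at 1.67-fold and Psmd14 at 1.37-fold, none of them at the 2-fold that 6.56% of all genes reached, followed by Psmd3 (log2 0.23) and Psmd13 (0.11, adjusted p = 0.042, libraries overlapping). The call of Psmd13 was lost under 8 of 13 alternatives, among them DESeq2 (adjusted p = 0.058), both other scalings and Nrf1KO CFZ 6 h replicate 1 or 2 or CFZ 24 h replicate 2 or 3 left out, and without the last of these the difference was 0.017 (adjusted p = 0.73). Psmd6 fell by 0.25 on the log2 scale (adjusted p = 8.7e-06). Psmd7 and Psmd12 had differences of -0.06 and 0.03 that were not called. Psmd7 was called lower with upper-quartile scaling (-0.092, adjusted p = 0.030), with library size alone (-0.128, adjusted p = 0.0029), without Nrf1KO CFZ 6 h replicate 1 (-0.090, adjusted p = 0.049) and without CFZ 24 h replicate 3 (-0.112, adjusted p = 0.0072).

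**Figure D2:**
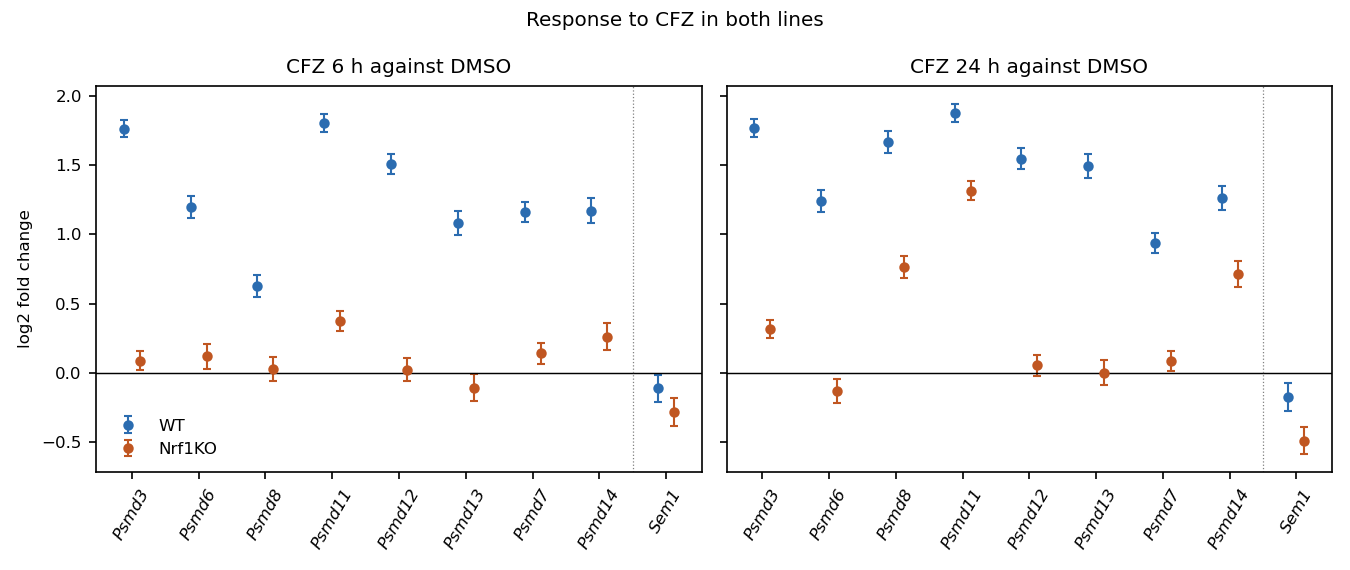
Log2 fold change of CFZ against DMSO at 6 h (left) and 24 h (right) for the 8 lid genes and Sem1 in WT (blue) and Nrf1KO (orange), with 95% intervals of the fit. At both times the WT value lies above the Nrf1KO value in all 8 lid genes, and the gap at 24 h is narrowest in Psmd14 and Psmd11.

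Without drug, Nrf1KO cells had less RNA of 7 of the 8 lid genes, and in these 7 the libraries of the lines did not overlap. Of all genes tested, 29.1% were lower, and 31.8% had all Nrf1KO libraries below all WT libraries. The log2 differences were -0.56 ± 0.032 in Psmd3 (adjusted p = 1.1e-15) and -0.42 ± 0.034 in Psmd11 (adjusted p = 9.1e-12), the genes that rose most in WT, and -0.24 in Psmd6, -0.20 in Psmd8, -0.20 in Psmd14, -0.13 in Psmd7 and -0.11 in Psmd12. The call of Psmd12 (adjusted p = 0.018) was lost with DESeq2 (adjusted p = 0.051), library size alone (-0.058, adjusted p = 0.19) and no expression filter (adjusted p = 0.056), and without WT DMSO replicate 1 or 2 or Nrf1KO DMSO replicate 2. That of Psmd7 was lost with library size alone (-0.078, adjusted p = 0.071). Psmd13 had a difference of 0.01, with an interval of -0.08 to 0.10. None of the 7 reached 2-fold, as 1.77% of all genes did, and the median of the lid was -0.20, as compared with -0.02 for all genes.

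Under CFZ all 8 lid genes were lower in Nrf1KO than in WT, with every Nrf1KO library below every WT library, next to 30.8% of all genes called lower at 6 h and 36.4% at 24 h and 32.8% and 36.7% without overlap in this direction. At 6 h Psmd3 was 4.72-fold lower (log2 -2.24 ± 0.032), the most of any lid gene, and Psmd8 1.74-fold lower, the least. At 24 h the range ran from 4.04-fold in Psmd3 (log2 -2.02 ± 0.031) to 1.68-fold in Psmd14 (log2 -0.75 ± 0.042). By at least 2-fold, 7 of the 8 were lower at 6 h and 5 at 24 h, as compared with 3% and 5.53% of all genes. In these libraries Psmd3 stood at 143 to 144 CPM in Nrf1KO and 664 to 694 in WT at 6 h, and at 167 to 170.2 and 679 to 682 at 24 h.

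Whether the response itself differed between the lines was tested by the interaction of line and CFZ, the log2 fold change in Nrf1KO minus that in WT. It was negative and called for all 8 lid genes at both times, with a median of -1.13 at 6 h and -1.14 at 24 h, while 18.4% of all genes were called lower in this test at 6 h and 30% at 24 h and their medians were 0.02 and 0.00. It was at least 2-fold in 6 of the 8 at 6 h and in 4 at 24 h, next to 1.57% and 4.53% of all genes. All of the calls by adjusted p were kept with each other scaling, filter and tool tried and with any library left out. The 2-fold count at 6 h was not, as Psmd7 ran from -1.06 to -0.99 over these alternatives.

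At 24 h the lid genes differed among themselves in the size of the interaction, which depends on the rise in WT as well as on that in Nrf1KO. In Psmd12, Psmd13 and Psmd3 the interaction was -1.50 ± 0.052, -1.49 ± 0.061 and -1.45 ± 0.044, and in Psmd6 it was -1.38 ± 0.057 (adjusted p at most 3.7e-19). In Psmd8 and Psmd7 it was -0.90 ± 0.055 and -0.85 ± 0.051. In Psmd11 and Psmd14 it was -0.56 ± 0.046 and -0.55 ± 0.063 (adjusted p = 5e-12 and 5.9e-09). The intervals of the first 4 do not overlap those of the last 4, with the PCI subunits Psmd8 and Psmd11 beside the MPN pair. On the log2 scale Psmd7 rose by 0.94 in WT, the least of the lid genes, and by 0.08 in Nrf1KO. Its small interaction thus stands for a response that was mostly lost. The rises in WT and Nrf1KO were 1.67 and 0.76 in Psmd8, 1.88 and 1.32 in Psmd11, and 1.26 and 0.71 in Psmd14. The median interaction was -1.41 over the 6 PCI genes and -0.70 over the MPN pair. At 6 h the order was another, from -1.68 ± 0.045 in Psmd3, -1.48 in Psmd12 and -1.44 in Psmd11 over -1.19 in Psmd13, -1.08 in Psmd6, -1.02 in Psmd7 and -0.91 in Psmd14 to -0.60 ± 0.058 in Psmd8 (adjusted p = 6e-10).

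The change between 6 h and 24 h of CFZ was also compared between the lines, and differed for 7 of the 8 lid genes, 4 higher and 3 lower, next to 20.7% and 22.2% of all genes. None reached 2-fold, as 1.54% and 2.64% of all genes did. Psmd11 stood out, with an interaction of line and time of 0.87 ± 0.046 (adjusted p = 3.7e-16), since in Nrf1KO it was between 139 and 142 CPM at 6 h and between 269 and 273 at 24 h, while in WT it was between 503 and 515 and then between 527 and 541. Psmd14 (0.36), Psmd3 (0.22) and Psmd7 (0.17, adjusted p = 0.0071) had the same sign. Psmd13 (-0.31), Psmd8 (-0.30) and Psmd6 (-0.30) had the other, and Psmd12 had -0.01 with an interval of -0.12 to 0.10.

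Levels of different genes were set side by side per kilobase of annotated exon (CPM per kb). Summed over the 8 genes, the level was 346 ± 3.2 CPM per kb in WT DMSO, 848 ± 7.5 at 6 h and 922 ± 11.3 at 24 h (SD, n = 3), and 301 ± 4.5, 325 ± 5.6 and 381 ± 16.2 in Nrf1KO. In WT DMSO Psmd7 was highest at 96.2 ± 2.1 CPM per kb, followed by Psmd12 at 46.8, Psmd8 at 41.8, Psmd3 at 40.1, Psmd6 at 34.9, Psmd14 at 31.8, Psmd13 at 31.7 and Psmd11 at 22.7. As shares of the lid's sum, the neighbours Psmd8 and Psmd3, and Psmd14 and Psmd13, overlapped between libraries, and the other neighbours did not. Psmd7 was the highest in all 6 groups and Psmd11 the lowest in WT DMSO, whether the length was all exonic bases or the longest transcript. The places between them depended on that length, as Psmd12 was the second by all exonic bases and the fifth by the longest transcript in WT DMSO.

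CFZ changed the proportions of the lid transcripts as well as their amount. In WT the share of Psmd7 in the summed level per kb went from 27.8% ± 0.38 in DMSO to 25.4% ± 0.38 at 6 h and 19.9% ± 0.28 at 24 h. That of Psmd11 went from 6.57% to 9.39% and 9.08%, and that of Psmd3 from 11.6% to 16.1% and 14.9%. Psmd8 dipped from 12.1% ± 0.70 to 7.61% ± 0.051 and came back to 14.4% ± 0.36, so that it was the lowest of all 8 at 6 h. The coefficient of variation between the 8 genes was 52.3% in DMSO, 49.7% at 6 h and 33.1% at 24 h, so the levels lay closer together at 24 h.

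In Nrf1KO the share of Psmd7 was 29.2% ± 0.29 in DMSO, 29.96% ± 0.72 at 6 h and 24.5% ± 0.67 at 24 h, so it fell in this line too. Psmd13 went from 10.6% ± 0.14 to 9.13% ± 0.016 and 8.35% ± 0.48. Psmd12 went from 14.4% to 13.6% and 11.8% ± 0.33, while Psmd3 stayed at 9.04%, 8.89% and 8.90%. Psmd11 went from 5.66% in DMSO to 6.79% at 6 h and 11.1% ± 0.50 at 24 h, Psmd8 from 12.1% to 11.4% and 16.2% ± 0.075, and Psmd14 from 9.18% to 10.3% and 11.9% ± 0.37. The share of Psmd6 went from 9.82% to 9.93% and 7.07% ± 0.12. The coefficient of variation was 57.8%, 58.7% and 45.02%. These shares are descriptions and were not tested.

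**Figure D3:**
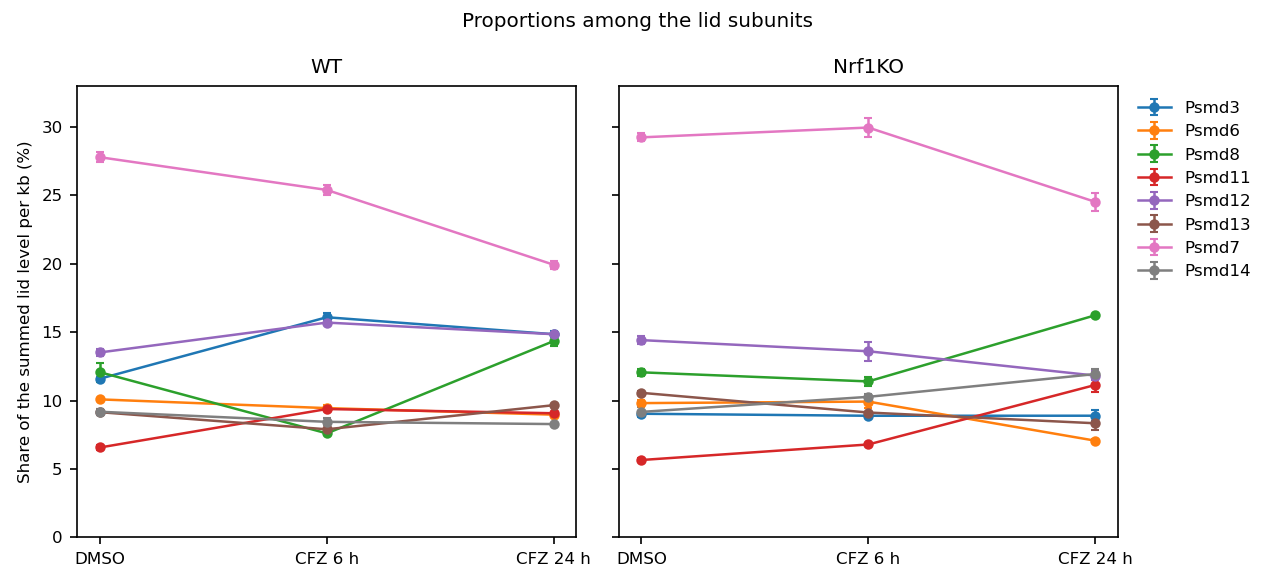
Share of each lid gene in the summed level per kb of the 8 genes (percent, linear axis from 0) in WT (left) and Nrf1KO (right), as mean and SD of 3 libraries for DMSO, CFZ 6 h and CFZ 24 h. Psmd7 falls from 27.8% to 19.9% in WT and from 29.2% to 24.5% in Nrf1KO. Psmd8 dips at 6 h in WT, and Psmd11 rises to 11.1% at 24 h in Nrf1KO. Lines join the groups of a gene and do not stand for a time course of the same cultures.

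The smallest lid component, Sem1, tethers Psmd3 and Psmd6 in the complex. It is listed under its older symbol Shfm1, and was not among the 8 genes. It did not share their rise. In WT it stood at 129.9, 119.9 and 124 CPM in DMSO, 121, 111 and 114 at 6 h and 112, 109 and 109 at 24 h, and in Nrf1KO at 131, 129 and 133, then 107, 105 and 113, and then 81.7, 96.8 and 101. It fell by 0.11 on the log2 scale at 6 h in WT (adjusted p = 0.039, libraries overlapping) and by 0.18 at 24 h (adjusted p = 0.0015), and by 0.28 and 0.49 in Nrf1KO (adjusted p = 9.6e-06 and 8.7e-11). The call in WT at 6 h was lost without WT DMSO replicate 1 (-0.073, adjusted p = 0.24) or 3 or CFZ 6 h replicate 2 or 3. The interaction was called at 24 h (-0.31, adjusted p = 0.00028) but not at 6 h (-0.17, adjusted p = 0.056). The earlier one was called with the replicate block (adjusted p = 0.047), no expression filter (0.0074) and only the groups compared (0.015), and without WT DMSO replicate 1 (0.015), WT CFZ 6 h replicate 2 or 3 or Nrf1KO CFZ 6 h replicate 3.

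The rest of the proteasome changed in the same direction as the lid. In the 19S base, the ATPase ring with its scaffold and ubiquitin receptors, 10 of 10 genes were higher in WT at both times, with medians of 1.45 and 1.67, and 10 of 10 had a lower response in Nrf1KO, with median interactions of -1.16 at 6 h and -1.13 at 24 h. The shares of all genes called were, as for the lid, 35.6% and 43.2% higher in WT and 18.4% and 30% lower in the interaction. In the 20S core it was 14 of 14 in each of these tests, with medians of 1.04 and 1.33 in WT and interactions of -1.10 and -1.07. In Nrf1KO the median response was 0.26 at 6 h and 0.43 at 24 h in the base, and -0.01 and 0.25 in the core. The interaction at 24 h ran from -1.44 in Psmc4, an ATPase, to -0.68 in Adrm1, a ubiquitin receptor that was still 2.12-fold higher with CFZ in Nrf1KO, and in the core from -1.69 in Psmb3 to -0.69 in Psmb1, both of the beta rings. The lid's range, -1.50 to -0.55, thus reached as far towards 0 as any gene of the base or core.

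Proteins that assemble or accompany the 19S particle were less uniform. Of the chaperones of base assembly, 3 of 4 were tested and 2 had a lower response in Nrf1KO at each time (medians -0.22 and -0.64, next to 18.4% and 30% of all genes). Psmd5 had the largest interaction at 24 h (-1.53 ± 0.057), since it rose by 0.67 in WT and fell by 0.85 in Nrf1KO on the log2 scale, and Psmd10 the smallest (-0.16, adjusted p = 0.12). Of the deubiquitinases that bind the particle from outside, Usp14 had -1.33 ± 0.051 at 24 h, with 2.82-fold in WT and 1.12-fold in Nrf1KO, and Uchl5 had -0.13 (adjusted p = 0.10).

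Complexes built like the lid, from PCI and MPN subunits, showed smaller differences by their medians. In the COP9 signalosome, which removes the ubiquitin-like protein Nedd8 from cullins, 7 of 9 genes had a lower response in Nrf1KO at 6 h and 9 of 9 at 24 h, with medians of -0.20 and -0.34, next to the same 18.4% and 30% of all genes. Its metalloprotease Cops5, the counterpart of Psmd14, had the largest interaction, -0.90 ± 0.065 at 24 h, with 2.05-fold in WT and 1.10-fold in Nrf1KO, and Cops8 the smallest, -0.18. The value of Cops5 was level with that of the lid gene Psmd8 (-0.90) and more negative than those of Psmd7 (-0.85), Psmd11 (-0.56) and Psmd14 (-0.55). In the PCI and MPN subunits of the translation factor eIF3, 2 of 8 genes were higher and 1 lower in this test at 6 h, and 3 higher and none lower at 24 h (edgeR, with medians of -0.08 and 0.13, next to 19.8% and 29.7% of all genes higher), from -0.07 in Eif3m (adjusted p = 0.30) to 0.40 in Eif3a. Of 6 other JAMM metalloproteases, including Cops5, 1 was lower and 1 higher at 6 h and 4 were lower at 24 h (medians -0.10 and -0.25). Of all genes 18.4% were lower and 19.8% higher at 6 h, so 1 of 6 each way is close to that share, and 30% were lower at 24 h. Brcc3 was nearest to 0 at 24 h (-0.05, adjusted p = 0.73). The count of the lid, 8 of 8, stands beside these as a description, and no test was made of a list against other genes.

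**Figure D4:**
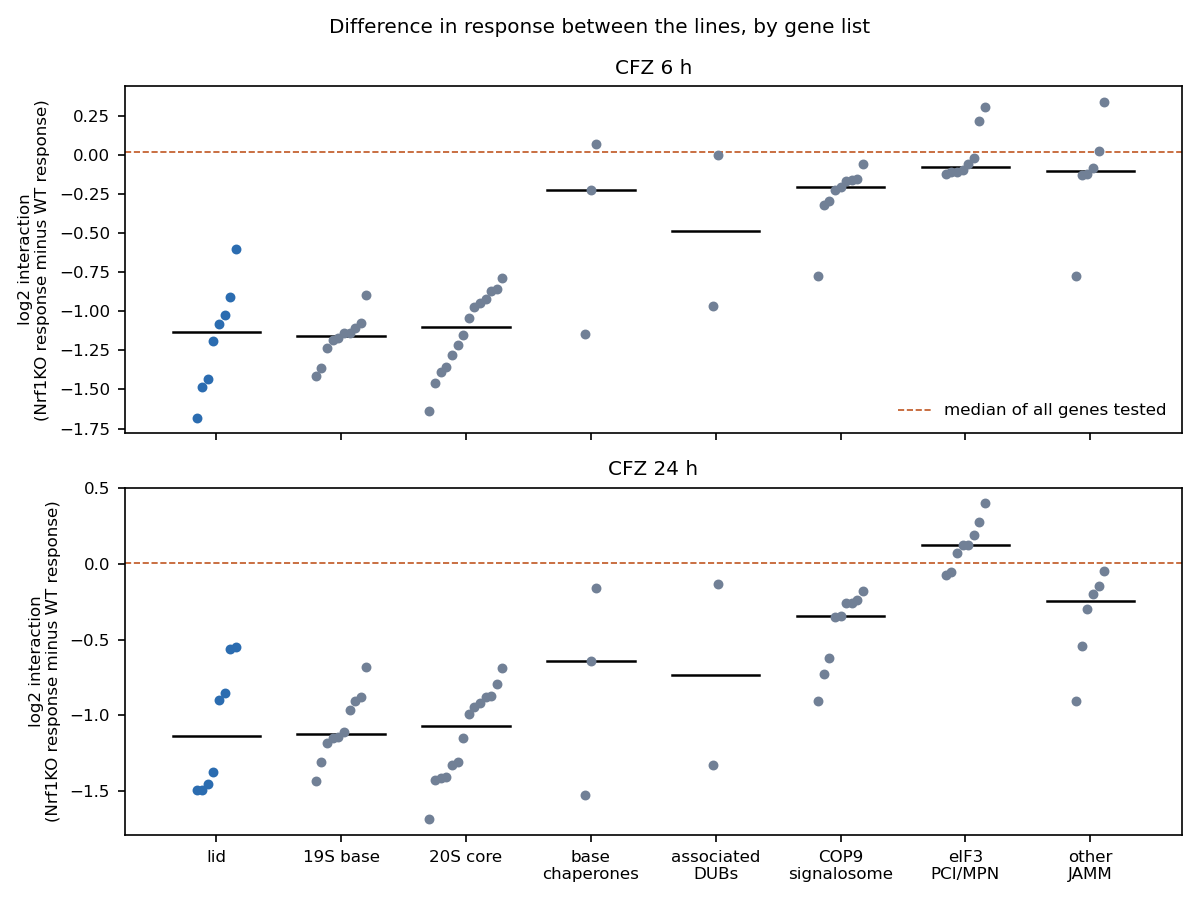
Interaction of line and CFZ (log2 response in Nrf1KO minus that in WT) at 6 h (top) and 24 h (bottom), with 1 point per gene, black lines at list medians and a dashed line at the median of all 11762 genes. The lid (blue), 19S base and 20S core lie at medians between -1.16 and -1.07 at both times, while the COP9 signalosome, eIF3 and other JAMM lists lie between -0.34 and 0.13.

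Over the 18 libraries, the 5 genes whose log2 level followed the mean of the lid most closely were other proteasome genes. They were led by Psma3 and Psmc5 (Pearson r = 0.998 for each), among the 10260 tested genes whose counts averaged 50 or more. Of the 50 most like, 17 were of the 19S base or 20S core, which have 24 genes in all, and 3 were lid genes. Most of the 50 were thus outside the proteasome lists. Within the lid, which makes up that mean, r was 0.987 for Psmd3, 0.986 for Psmd12, 0.979 for Psmd13, 0.970 for Psmd14, 0.966 for Psmd7, 0.960 for Psmd6 and 0.956 for Psmd11, and it was lowest, 0.879, for Psmd8. It was -0.137 for Sem1. These r values describe points that fall into 6 groups and share their libraries, and are given without a p.

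Outside the proteasome lists the closest genes were Ccdc77 (r = 0.994), Diablo (0.993), 1110008F13Rik (0.993), Tbk1 (0.993), Skiv2l2 (0.992), Fam219a (0.991), Nsfl1c (0.991), Mocos (0.990), Camk2g (0.988) and Flywch1 (0.987). Fam219a had the steepest pattern, with a log2 fold change at 24 h of 2.77 in WT and 0.88 in Nrf1KO. Nsfl1c, a cofactor of the segregase p97, had 1.60 and 0.58. Tbk1, a kinase of innate immune signalling, had 1.12 and 0.13, and Diablo, a mitochondrial protein that counters inhibitors of apoptosis, had 0.87 and 0.25.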

How the data were processed

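The authors made stranded mRNA libraries (KAPA kit) from 18 NIH-3T3 cultures, sequenced them as paired reads on an Illumina HiSeq instrument and processed them with RNA Express, which runs STAR and DESeq2. The authors deposited 1 table of raw counts, reads per gene symbol and library without normalization. The tools' versions, genome build, annotation and use of strand are not given in the sources used here. Groups came from the sample labels.

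The counts were tested with edgeR 4.0.16 in R 4.3.3 (filterByExpr with a minimum count of 10 and total of 15, TMM scaling, 1 quasi-likelihood model of the 6 groups, Benjamini-Hochberg adjustment over 11762 genes) in 12 comparisons. The standard error is the log2 fold change divided by the square root of F. The test was run on simulated counts first. Positions and lengths came from GENCODE M21 by symbol, and promoters from RefSeq. The genes named are the 8 lid genes, Nfe2l1, Sem1, the genes with the highest and lowest interaction at 24 h of each list, and the 10 genes outside these lists most like the lid. The members and the lists were chosen with earlier results of these data known. Each result was computed again with other scaling (upper quartile, library size alone), other filters (none, or counts averaging 10 or more), DESeq2 1.42.0, a model of the compared groups only, a replicate block, 1 library left out at a time, a minimum fold of 2, and the longest transcript as length. Proteins of the lid were not analysed here.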

Additional observations from a re-analysis of the deposited data

Results flagged for a closer look

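The response of the lid genes differed between the lines by the test of the difference itself (edgeR's quasi-likelihood test of the interaction, Benjamini-Hochberg adjusted p under 0.05), with Nrf1KO set against WT on the log2 scale. At 6 h of CFZ the interaction was -1.68 for Psmd3, -1.08 for Psmd6, -1.02 for Psmd7, -0.60 for Psmd8, -1.44 for Psmd11, -1.48 for Psmd12, -1.19 for Psmd13 and -0.91 for Psmd14. At 24 h it was -1.45 for Psmd3, -1.38 for Psmd6, -0.85 for Psmd7, -0.90 for Psmd8, -0.56 for Psmd11, -1.50 for Psmd12, -1.49 for Psmd13 and -0.55 for Psmd14.

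The change from 6 h to 24 h of CFZ also differed between the lines. The interaction of line and time was 0.87 for Psmd11, 0.36 for Psmd14, 0.22 for Psmd3 and 0.17 for Psmd7, and it was -0.31 for Psmd13, -0.30 for Psmd8 and -0.30 for Psmd6. Of all these differences, that of Psmd7 in time was lost with scaling by library size alone (0.07, adjusted p = 0.26), and the others kept their call under every alternative tried other than a minimum fold.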

How the results depend on the processing

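The calls of the 8 lid genes in WT cells against DMSO, in both direct comparisons of the lines under CFZ and in both interactions of line and CFZ were the same under every alternative other than a minimum fold. The weak calls in Nrf1KO cells, between the times and between the lines in DMSO were not. The cause was not tested. Neither the labels nor the study name a pairing of equal replicate numbers. The deviations of same-numbered libraries correlated at 0.02 on average (45 pairs, -0.06 to 0.14, 4 over 0.1), so the numbers were not used as pairs. In a fit with a replicate block the lid medians were 1.18 for WT at 6 h and -1.14 for the interaction at 24 h, and the one call that changed was Sem1's interaction at 6 h.

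With upper-quartile scaling the lid median was 1.08 in WT at 6 h, 1.38 in WT at 24 h, 0.0275 and 0.0909 in Nrf1KO at 6 h and 24 h, and -1.20 between the lines at CFZ 6 h. It called 2 lid genes higher between the times in WT, 2 higher in Nrf1KO at 6 h, 2 lower in Nrf1KO at 24 h and 2 lower between the times in Nrf1KO. Of the 11762 genes tested, it called 4120, 3376, 5442 and 4765 in these directions, in the same order. With library size alone the medians, in the order of these 5, were 1.05, 1.42, -0.0106, 0.0172 and -1.18, and they were -0.15 between the lines in DMSO, 0.10 between the times in Nrf1KO and -0.0181 for the interaction of line and time. It called 2 genes higher and 2 lower in Nrf1KO at 6 h, 4 lower at 24 h and 2 lower between the times. Of the 11762 genes tested, it called 3036 higher and 5298 lower at 6 h, 5857 lower at 24 h and 5020 lower between the times. This scaling moved the median of all genes from -0.02 to -0.15 in WT at 6 h and from 0.03 to -0.15 in Nrf1KO at 24 h. It moved the share of called genes that were higher from 49.6% to 35.4% in WT at 6 h (37.9% with upper-quartile scaling), from 49.7% to 36.4% in Nrf1KO at 6 h, from 52.0% to 41.6% in Nrf1KO at 24 h, from 46.9% to 57.7% between the lines in DMSO, from 49.8% to 60.8% between the lines at CFZ 6 h and from 48.2% to 30.1% for the interaction of line and time. Without the expression filter the median was 1.16 in WT at 6 h, 1.47 in WT at 24 h and 0.0522 in Nrf1KO at 6 h, with 2 genes higher between the times in WT and 3 higher in Nrf1KO at 6 h. DESeq2 called 3 higher there, next to 3620 of all genes.

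A minimum fold of 2 left 1 lid gene higher and 0 lower between the times in WT, 0 and 0 in Nrf1KO at 6 h, 1 and 0 at 24 h, 0 and 0 between its times, 0 lower between the lines in DMSO, 5 lower at CFZ 24 h, 4 lower for the interaction at 24 h, and 0 and 0 for that of line and time. With the longest transcript as length the coefficient of variation was 39.7%, 39.2% and 21.9% in WT and 44.7%, 45.6% and 35.3% in Nrf1KO, in the order DMSO, 6 h and 24 h.

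Leaving out 1 library at a time gave lid medians of 1.17 to 1.21 in WT at 6 h and 0.0120 to 0.0644 between its times, where 2 to 3 genes were higher. It gave 3 to 5 higher and 0 to 1 lower in Nrf1KO at 6 h, and 1 to 2 lower both at 24 h and between its times.

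Differences that changed sign ran from -0.130 to 0.0537, and 3 were called lower, all with library size alone in Nrf1KO (Psmd12 at 6 h, Psmd7 and Psmd12 at 24 h). Between the times in WT, Psmd3 had -0.0224 with upper-quartile scaling, -0.0226 without filter, -0.0035 with only the groups compared and -0.0485 to 0.0075 on leaving out libraries, where Psmd6 had -0.0070 to 0.0533 and Psmd12 -0.0102 to 0.0495. In Nrf1KO at 6 h, with upper-quartile scaling, library size alone and no filter, Psmd8 had -0.0499, -0.0882 and -0.0251 and Psmd12 -0.0514, -0.0896 and -0.0268, and Psmd3 had -0.0272 with library size alone. On leaving out libraries Psmd8 had -0.0029 to 0.04996 and Psmd12 -0.0077 to 0.0523. In Nrf1KO at 24 h, with upper-quartile scaling and library size alone, Psmd7 had -0.0244 and -0.0982 and Psmd12 -0.0558 and -0.130, and Nfe2l1 had -0.00092 with library size alone. On leaving out libraries Psmd12 had -0.0023 to 0.0655 and Psmd13 -0.110 to 0.0284. Between the times in Nrf1KO, Psmd12 had -0.0044 and -0.0404 with these scalings and -0.0059 to 0.0613 on leaving out libraries. In DMSO Psmd13 had -0.0102 to 0.0356 on leaving out libraries. For the interaction of line and time Psmd12 had 0.0165 without filter, 0.0210 with only the groups compared and -0.0397 to 0.0537 on leaving out libraries.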
